A study of Bos taurus with 6 samples.

Results

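The genes described are 10 members of the piRNA pathway, PIWIL1, PIWIL2, PIWIL3, DDX4, MAEL, MOV10L1, ASZ1, TDRKH, TDRD1 and PLD6, in single bovine (Bos taurus) oocytes. They were taken by gene symbol from a table of 20707 genes, and each symbol matched 1 row. PIWI-interacting RNAs (piRNAs) are small RNAs of the germline that guide PIWI proteins to transposon transcripts and other RNAs. Long precursor RNAs are cut on the outer surface of mitochondria, and the fragments are loaded into PIWI proteins and matured in nuage, a perinuclear granule of RNA helicases and Tudor-domain proteins. In mouse the pathway is needed above all in male germ cells, whereas cattle, humans and hamsters carry PIWIL3, a PIWI gene that mouse lacks and that is described from oocytes.

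MII oocytes, matured in vitro for 24 hours to metaphase of the second meiotic division, were compared with GV oocytes, which still had an intact germinal vesicle, were arrested in meiotic prophase and were collected when follicles were aspirated. All came from abattoir ovaries, and no treatment other than the maturation culture separated the stages. The table holds 3 MII libraries (MII14c, MII15 and MII15c) and 3 GV libraries (GV14, GV14c and GV15), each from an individual oocyte per the labels, but MII15c and GV14c match no sample title and carry only their stage. The titled samples MII14 and GV15c match no column, and whether the untitled columns hold them under another number is not known. Nothing states whether the oocytes came from separate animals, or whether the letter c marks a repeat, so p-values measure only the spread between these libraries.

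Values are RPKM, reads per kilobase of gene model scaled to the number of mapped reads, so levels can be set side by side between genes. Each value is a share of its library, so rose and fell refer to that share and not to an amount per oocyte. Depth recovered from the low values was 21.29 to 32.45 M reads in MII libraries and 20.27 to 29.98 M reads in GV libraries. The cDNA kit primes on poly(A) tails, so the number of transcripts and the capture of their tails cannot be told apart. All 10 oocyte markers found in the table averaged at least 1 RPKM over the libraries, FIGLA only through GV (0.114 to 1.055 RPKM in MII, 23.7 to 35.5 in GV). Their summed level was 2794 to 3717 RPKM in MII libraries and 6760 to 9903 RPKM in GV libraries. BMP15 (826 to 1435 RPKM in MII, 743 to 869 in GV), KIT and NOBOX overlapped between stages. The other markers were lower in every MII library than in any GV library. Of 15 cumulus and granulosa rows, 3 averaged at least 1 RPKM (STAR, HAS2 and GJA1), LHCGR was listed at 0 in every library, and AMH and FSHR reached at most 0.027 and 0.014 RPKM. INHBA and FST reached 3.61 and 1.95 RPKM in GV15, NR5A2 1.34 RPKM in GV14 and HSD3B1 2.02 RPKM in MII15. The summed cumulus level was 101.9 to 105.3 RPKM in MII and 92.2 to 172.1 RPKM in GV libraries. Within it HAS2 was higher in MII (55.4 to 64.8 RPKM, against 11.6 to 18.9 in GV) and STAR lower (29.3 to 39.7 RPKM, against 67.1 to 135.6 in GV). The part of cumulus transcripts in the results was not tested. Of 8 blood rows, 5 were at 0 throughout and 1, CD3E, averaged at least 1 RPKM, with 1.43 to 3.65 RPKM in MII and 6.50 to 28.6 RPKM in GV libraries.

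The genome build of the authors' annotation is not given in the sources used here. In it the members lie on 8 chromosomes. MAEL is on chromosome 3 from 1881226 to 1937675 on the minus strand, with 11 coding exons, and TDRKH on the same chromosome from 19030951 to 19053681 on the plus strand, with 12. PIWIL1 and PIWIL3 share chromosome 17, from 47726195 to 47763521 with 20 coding exons and from 67220445 to 67247672 with 23, both on the minus strand. PIWIL2 is on chromosome 8 from 70092682 to 70178380 (plus strand, 22 coding exons). DDX4 is on chromosome 20 from 23379218 to 23444460 (minus strand, 21 coding exons), and ASZ1 on chromosome 4 from 51294493 to 51370518 (plus strand, 13 coding exons). TDRD1 is on chromosome 26 from 34935786 to 34990385 (plus strand, 24 coding exons), and MOV10L1 on chromosome 5 from 121099143 to 121164873 (plus strand, 28 coding exons). PLD6 has the smallest model, with 2 coding exons and 663 coding bases on chromosome 19 from 35543311 to 35546544 (plus strand). MOV10L1 is the single member whose span overlaps other gene models, 2 of them, counted on both strands, so some of its reads may be shared. The annotation also notes the reads that support each model: between 40 and 998 spliced reads for 9 members, and for PLD6 0 spliced of 769.

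The members covered a wide range of levels, from an mRNA among the most abundant of the oocyte to several at a few RPKM. MAEL ranked 111 of 8671 tested genes in MII and 235 in GV. In MII oocytes the order of mean levels was MAEL, TDRKH, ASZ1, TDRD1, DDX4, PIWIL3, PIWIL2, PIWIL1, MOV10L1 and PLD6. Among neighbours in that order, library ranges were separate between MAEL and TDRKH, between TDRKH and ASZ1 and between PIWIL2 and PIWIL1, and overlapped for the other neighbours. In GV oocytes the order was MAEL, TDRKH, DDX4, TDRD1, ASZ1, PIWIL3, PLD6, PIWIL2, MOV10L1 and PIWIL1. There the neighbours DDX4 and TDRD1, PLD6 and PIWIL2, PIWIL2 and MOV10L1, and MOV10L1 and PIWIL1 overlapped. MAEL and TDRKH thus led in both stages, while ASZ1 held place 3 in MII and 5 in GV, and PLD6 held place 10 in MII and 7 in GV.

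**Figure D1:**
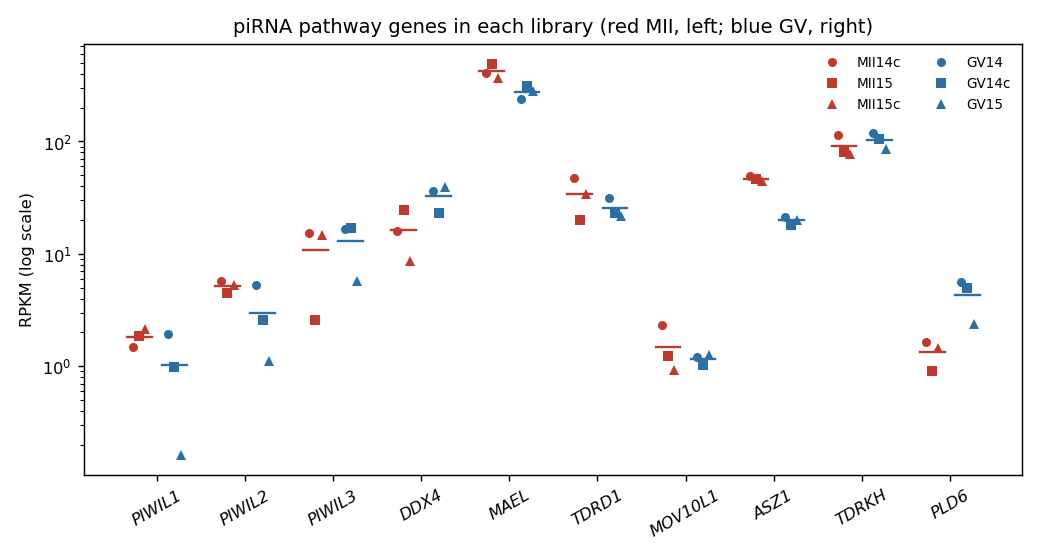
RPKM (log axis) of the 10 genes in each library, with MII libraries in red on the left and GV libraries in blue on the right of each gene; symbols mark libraries and short lines the stage means. MAEL and ASZ1 lie higher in every MII library than in any GV library, PLD6 lies lower, and PIWIL3 is spread over a wide range within each stage.

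Comparing MII with GV asks how the mRNA store of the pathway differs after maturation. ASZ1 and MAEL rose and PLD6 fell, while 7 of the 10 members did not pass the test (limma on log2(RPKM + 1), Benjamini-Hochberg adjusted p under 0.05 over the 8671 genes that averaged 1 RPKM or more). All 10 members met that minimum level. Over all tested genes 13.4% were called higher and 26.9% lower in MII, 40.3% in all, so 3 calls among 10 is not above the background. The stages did not overlap for the same 3 members; over all tested genes 19.8% were higher and 32.1% lower in every MII library than in any GV library, 51.9% in all. The median log2 change of the members was 0.25, against -0.16 over all tested genes. The lower genes were 66.7% of all calls with the deposited scaling, and 55.0%, 45.4% and 59.9% under median-ratio scaling, quantile normalization and TPM scaling. Those scalings moved the median change of all genes to 0.05, 0.22 and -0.07. Without MII15c and GV14c, the libraries that match no title, ASZ1 passed (limma adjusted p = 0.0339) and MAEL and PLD6 did not (0.0883 and 0.168), with log2 changes of 1.17, 0.78 and -1.09.

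**Figure D2:**
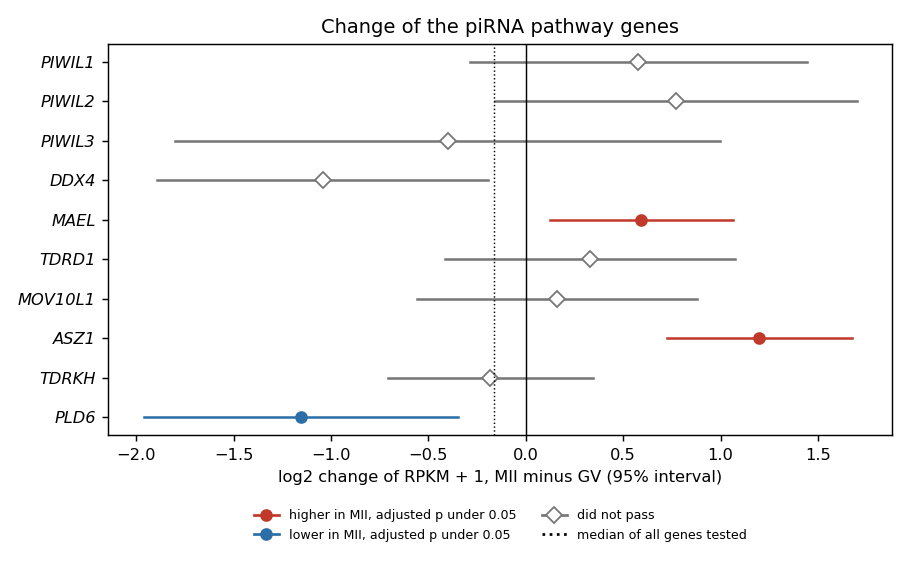
Log2 change of RPKM + 1 (x axis, MII minus GV) with its 95% interval from limma for each gene; filled circles passed the test, open diamonds did not, and the dotted line is the median of all genes tested. ASZ1 at 1.20 and MAEL at 0.59 are higher in MII, PLD6 at -1.15 is lower, and the intervals of PIWIL1, PIWIL2, PIWIL3, TDRD1, MOV10L1 and TDRKH include 0.

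The PIWI proteins are the piRNA-binding members. PIWIL3 was the most abundant of the 3 on average in both stages. It stood at 15.5, 2.58 and 14.8 RPKM in MII14c, MII15 and MII15c, against 16.7, 17.0 and 5.69 RPKM in GV14, GV14c and GV15. One library of each stage was thus several times below the other two, and the stages overlapped. The log2 change was -0.40 ± 0.62 (SE; 95% interval -1.80 to 1.00; limma adjusted p = 0.638), so the direction was not resolved. Leaving out 1 library moved it between -0.87 (without GV15) and 0.32 (without MII15). With a term for the letter c the change was -0.88 ± 0.41 (SE; limma adjusted p = 0.0936). The spread of PIWIL3 within stages, an SD of 1.06 on the log2 scale, was at percentile 97.3 of all tested genes.

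PIWIL2, the mouse counterpart of which cleaves target RNAs to start the amplification of piRNAs, had 5.76, 4.51 and 5.32 RPKM in MII14c, MII15 and MII15c, against 5.25, 2.57 and 1.12 RPKM in GV14, GV14c and GV15. PIWIL1, which in mouse carries the piRNAs of late meiotic and haploid male germ cells, had 1.48, 1.88 and 2.15 RPKM in MII14c, MII15 and MII15c, against 1.94, 0.989 and 0.161 RPKM in GV14, GV14c and GV15. For both genes the MII libraries lay close together, while the GV libraries were spread out, with GV14 inside the MII range. Log2 changes were 0.77 ± 0.41 for PIWIL2 (95% interval -0.16 to 1.70; limma adjusted p = 0.165) and 0.58 ± 0.38 for PIWIL1 (-0.29 to 1.44; limma adjusted p = 0.26). Without GV15 the changes were 0.39 and 0.22 (limma adjusted p = 0.487 and 0.677). Quantile normalization was the single alternative of 17 under which they passed, as higher (limma adjusted p = 0.029 and 0.0321).

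GV15 was the lowest GV library for each of the 3 PIWI genes, and it was also the shallowest, at 20.27 M reads, and the lowest GV library for 44.4% of all tested genes. At its depth and counting the coding length alone, the PIWIL1 value in GV15 stands for about 8.44 reads, and 69.1 and 150 in GV14c and GV14. MII15, the library lowest in PIWIL3, was the lowest MII library for 56.9% of tested genes and had 21.29 M reads, but it held PIWIL1 and PIWIL2 near the other MII libraries. The part of depth in these values was not tested.

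The 3 PIWI levels together came to 22.7, 8.97 and 22.2 RPKM in MII14c, MII15 and MII15c, against 23.9, 20.6 and 6.98 RPKM in GV14, GV14c and GV15. The sums overlapped between stages (exact permutation p = 0.7, two-sided). PIWIL3 made up 68.1%, 28.7% and 66.4% of the sum in those MII libraries, against 70.0%, 82.7% and 81.6% in the GV libraries. Each MII share was below each GV share, by a mean of -0.62 on the log2 scale, or -0.21 without MII15, with an exact permutation p = 0.1, the smallest that 3 against 3 libraries allow (0.15 adjusted over 12 such quantities).

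Among the nuage members, MAEL (Maelstrom, which in mouse is required to silence transposons) was higher in MII. It had 404, 493 and 364 RPKM in MII14c, MII15 and MII15c, against 240, 312 and 279 RPKM in GV14, GV14c and GV15. All MII libraries lay above all GV libraries, and the mean was 420.3 ± 66.4 RPKM in MII and 277.4 ± 36.0 RPKM in GV (SD, n = 3 each). The log2 change was 0.59 ± 0.21 (SE; limma adjusted p = 0.0466), or 1.51-fold, close to the threshold. The call was lost without GV14, GV15, MII14c, MII15 or MII15c (limma adjusted p = 0.151, 0.107, 0.0822, 0.104 and 0.0755), and it held under 9 of 18 alternatives.

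DDX4, the VASA helicase that marks the germline and organizes nuage, had 16.0, 24.6 and 8.60 RPKM in MII14c, MII15 and MII15c, against 36.2, 23.3 and 39.4 RPKM in GV14, GV14c and GV15. The stages overlapped through MII15, which was just above GV14c. The log2 change of -1.04 ± 0.38 did not pass (limma adjusted p = 0.0527), although the 95% interval before adjustment, -1.89 to -0.19, lay below 0. It passed as lower under 6 of 18 alternatives, among them a term for the letter c (limma adjusted p = 0.0339), and kept its sign in all 18. Of the fits that left out 1 library, it passed without MII15 and GV14c (limma adjusted p = 0.0143 and 0.0417), and did not without MII14c, MII15c, GV14 or GV15 (0.09, 0.184, 0.148 and 0.147). Without MII15c the log2 change was -0.67. The mean level was 16.4 ± 8.01 RPKM in MII and 33.0 ± 8.56 RPKM in GV (SD, n = 3 each).

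TDRD1, a scaffold whose Tudor domains bind methylated arginines of PIWI proteins, had 47.8, 19.9 and 34.2 RPKM in MII14c, MII15 and MII15c, against 31.6, 23.2 and 21.9 RPKM in GV14, GV14c and GV15. MII libraries thus lay both above and below the GV range, and the log2 change was 0.33 ± 0.33 (95% interval -0.41 to 1.07; limma adjusted p = 0.458). It was 0.66 without MII15 and 0.047 without MII14c, and passed in neither case (limma adjusted p = 0.081 and 0.92). MOV10L1, the helicase that in mouse binds piRNA precursors, was low throughout, with 2.31, 1.24 and 0.928 RPKM in MII14c, MII15 and MII15c, against 1.22, 1.03 and 1.26 RPKM in GV14, GV14c and GV15. Its log2 change was 0.16 ± 0.32 (95% interval -0.56 to 0.88; limma adjusted p = 0.712). Without MII14c, the one library above 2 RPKM, it was -0.06.

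Of the 3 proteins of the mitochondrial surface, ASZ1 rose, PLD6 fell and TDRKH did not pass the test. ASZ1 (GASZ) anchors nuage components to the outer mitochondrial membrane. It had 49.7, 46.1 and 44.7 RPKM in MII14c, MII15 and MII15c, against 21.3, 18.2 and 20.1 RPKM in GV14, GV14c and GV15. The libraries of each stage lay close together and far from the other stage, at 46.8 ± 2.58 RPKM in MII and 19.8 ± 1.60 RPKM in GV (SD, n = 3 each). The log2 change was 1.20 ± 0.21 (SE; 95% interval 0.72 to 1.67; limma adjusted p = 0.00232), a 2.36-fold rise that was called under all 18 alternatives. Its spread within stages, 0.10 on the log2 scale, was at percentile 1.05 of all tested genes, and its change at percentile 94.9.

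PLD6 (Zucchini in fly, MitoPLD in mouse), the nuclease held to cut piRNA precursors into fragments, fell. It had 1.63, 0.900 and 1.47 RPKM in MII14c, MII15 and MII15c, against 5.68, 4.98 and 2.40 RPKM in GV14, GV14c and GV15. No MII library reached the lowest GV library, and the mean was 1.33 ± 0.38 RPKM in MII and 4.35 ± 1.73 RPKM in GV (SD, n = 3 each), 3.26-fold lower in MII. On the log2(RPKM + 1) scale, which understates changes of low genes, the change was -1.15 ± 0.36 (SE; limma adjusted p = 0.0299). At the coding length alone these levels stand for about 12.7 to 33.8 reads per MII library and 32.3 to 113 per GV library. The annotation notes 0 spliced of 769 reads for its model of 2 coding exons, and whether the signal is spliced mRNA was not tested. The call was lost without GV14, GV14c, MII15 or MII15c (limma adjusted p = 0.119, 0.0802, 0.0635 and 0.0765) and under quantile normalization and with no filter (0.097 and 0.0839), while the sign held under all 17 alternatives that kept the gene.

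TDRKH, a mitochondrial Tudor protein that in mouse receives PIWI proteins for trimming of their piRNAs, was the most abundant member after MAEL. It had 113, 81.2 and 78.1 RPKM in MII14c, MII15 and MII15c, against 119, 104 and 84.9 RPKM in GV14, GV14c and GV15. The ranges overlapped, and the log2 change was -0.18 ± 0.23 (95% interval -0.71 to 0.34; limma adjusted p = 0.568). The interval leaves room for a change in either direction, and the sign was positive under median-ratio scaling and quantile normalization (0.10 and 0.04).

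Ratios of members within a library are the same under any scaling by 1 factor per library, such as median-ratio or TPM scaling, but not under quantile normalization. They were chosen after the values were seen. PLD6 per ASZ1 was 0.0328, 0.0195 and 0.0329 in MII14c, MII15 and MII15c, against 0.266, 0.274 and 0.120 in GV14, GV14c and GV15. The mean difference was -2.90 on the log2 scale. The stages could not overlap in this ratio, since PLD6 was lower and ASZ1 higher in every MII library than in any GV library. Its permutation p below therefore adds nothing to the 2 genes. The same holds for ASZ1 per TDRKH and DDX4 per MAEL, where the ranges of the single genes also left no room for overlap. ASZ1 per TDRKH was 0.439, 0.568 and 0.572 in those MII libraries, against 0.179, 0.174 and 0.236 in the GV libraries, a difference of 1.42. DDX4 per MAEL was 0.0396, 0.0499 and 0.0237 in MII, against 0.151, 0.0745 and 0.141 in GV, a difference of -1.69 without overlap. PIWIL3 per PIWIL2 was 2.69, 0.571 and 2.77 in MII, against 3.19, 6.63 and 5.07 in GV, a difference of -1.55 that came to -0.80 without MII15. For each of these 4 ratios the exact permutation test gave p = 0.1, the smallest possible with 3 against 3 libraries, so none can pass 0.05 (0.15 adjusted over the 12 quantities). TDRD1 per TDRKH overlapped between stages (exact permutation p = 0.3).

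**Figure D3:**
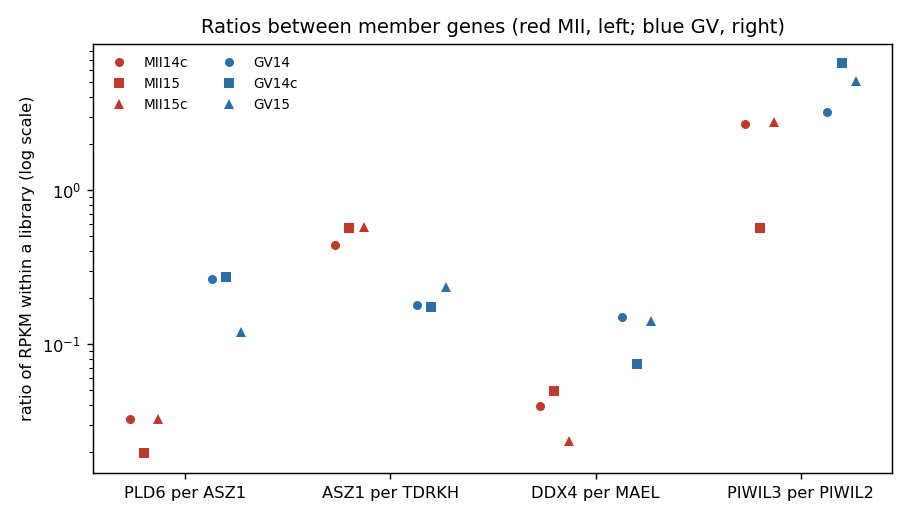
Ratio of RPKM of 2 member genes within each library (log axis), with MII libraries in red on the left and GV libraries in blue on the right. For PLD6 per ASZ1, ASZ1 per TDRKH, DDX4 per MAEL and PIWIL3 per PIWIL2 the MII and GV libraries do not overlap. For PLD6 per ASZ1, ASZ1 per TDRKH and DDX4 per MAEL this follows from the stage ranges of the single genes. For PIWIL3 per PIWIL2, MII15 at 0.571 lies far below the other libraries.

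The level summed over the 10 members was 657, 676 and 554 RPKM in MII14c, MII15 and MII15c, against 479, 508 and 456 RPKM in GV14, GV14c and GV15 (exact permutation p = 0.1). MAEL made up most of it, 61.4%, 73.0% and 65.6% in MII, against 50.2%, 61.5% and 61.2% in GV, so the sum mainly reports MAEL.

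Other genes of the pathway are known from mouse to act in piRNA production, as PIWI partners or in transposon silencing. Of 23 such symbols 21 were found, in 22 rows, and 14 rows met the level for testing. GTSF1 and TDRD5 fell, TDRD12 was called higher, and 11 did not pass, against 40.3% of all tested genes called. The TDRD12 call rests on the minimum level, which the gene met only through its MII libraries. GTSF1, a small zinc-finger partner that stimulates RNA cleavage by PIWI proteins, had 83.1, 46.9 and 78.1 RPKM in MII14c, MII15 and MII15c, against 202, 189 and 218 RPKM in GV14, GV14c and GV15. It had the highest level of the list in GV, but not in MII, where HENMT1 was above it, and was 2.93-fold lower in MII (log2 change -1.58 ± 0.25; limma adjusted p = 0.00142), a call kept under all 18 alternatives.

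TDRD5, a Tudor protein that in mouse binds piRNA precursors, had 37.8, 25.8 and 23.7 RPKM in MII14c, MII15 and MII15c, against 52.6, 48.7 and 51.7 RPKM in GV14, GV14c and GV15. Its log2 change was -0.82 ± 0.24 (limma adjusted p = 0.0241). The call was lost under median-ratio, quantile and TPM scaling (limma adjusted p = 0.112, 0.0597 and 0.0607) and without GV14, GV15 or MII15c (0.077, 0.0685 and 0.101). TDRD12, which in mouse acts in the secondary production of piRNAs, had 1.36, 1.89 and 1.94 RPKM in those MII libraries, against 0.532, 0.601 and 0.468 RPKM in the GV libraries. The log2 change was 0.83 ± 0.28 (limma adjusted p = 0.0439), and with no filter the gene did not pass (0.0524). That call was lost without GV14, GV14c, GV15 or MII14c (limma adjusted p = 0.121, 0.0717, 0.103 and 0.0635), and without MII15 or MII15c the gene was below the minimum level. Without both MII15c and GV14c, GTSF1 passed (limma adjusted p = 0.0165) and TDRD5 and TDRD12 did not (0.147 and 0.203).

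The enzymes that finish piRNA ends were expressed and did not pass the test. These 2 are named after their values were seen. HENMT1, which methylates piRNA 3′ ends, had 101, 190 and 195 RPKM in MII14c, MII15 and MII15c, against 74.2, 175 and 82.6 RPKM in GV14, GV14c and GV15 (limma adjusted p = 0.231). PNLDC1, the exonuclease that trims them, had 61.5, 31.0 and 56.2 RPKM in those MII libraries, against 98.6, 90.5 and 56.9 RPKM in the GV libraries (limma adjusted p = 0.0952). Each was called under 2 of 18 alternatives. HENMT1 was higher with library weights and without GV14c (limma adjusted p = 0.00233 and 0.0421). PNLDC1 was lower with library weights and with a term for the letter c (limma adjusted p = 0.0178 and 0.00997). The 8 rows below the level for testing were PIWIL4, TDRD9, SPOCD1, GPAT2, BTBD18, KIF17, DNMT3L and 1 of 2 TEX19 rows. PIWIL4, the remaining PIWI gene, was listed at 0 in MII15, MII15c, GV14 and GV14c, at 0.072 RPKM in MII14c and at 0.988 RPKM in GV15. SPOCD1, which in mouse links piRNAs to DNA methylation, was listed at 0 in all 6 libraries.

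Relatives of the members that act outside the pathway, together with the arginine methylation that Tudor domains read, were set beside the members. Of 19 rows 9 met the level for testing, and of these DDX3X rose, MOV10, PRMT5, AKAP1, SND1 and CLNS1A fell, and 3 did not pass. Over all tested genes 26.9% were called lower and 40.3% were called in all. The median log2 change of the 9 was -0.79, against -0.16 over all tested genes, and 4 to 5 of the 9 were called lower under the 3 other scalings. Of all 8671 tested genes, 2059, 1777 and 2047 were called lower under median-ratio scaling, quantile normalization and TPM scaling. MOV10, the helicase related to MOV10L1, had 2.82, 1.99 and 1.94 RPKM in MII14c, MII15 and MII15c, against 35.01, 45.3 and 21.2 RPKM in GV14, GV14c and GV15. It was 15.05-fold lower in MII (log2 change -3.37 ± 0.33; limma adjusted p = 0.000122). MOV10L1 per MOV10 was 0.821, 0.623 and 0.478 in those MII libraries, against 0.0349, 0.0228 and 0.0595 in the GV libraries. The difference was 4.11 on the log2 scale (exact permutation p = 0.1). The ranges of both genes left no room for overlap in this ratio, so its p adds nothing to them.

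PRMT5, the methyltransferase that makes the arginine marks bound by Tudor proteins, had 7.29, 3.78 and 4.66 RPKM in MII14c, MII15 and MII15c, against 30.6, 40.6 and 22.8 RPKM in GV14, GV14c and GV15 (log2 change -2.37 ± 0.32; limma adjusted p = 0.000635). CLNS1A, its cofactor, fell in the expressed of its 2 rows, at 24.8 ± 0.20 RPKM in MII and 43.7 ± 4.20 RPKM in GV (SD, n = 3 each; limma adjusted p = 0.0156). That call was lost under median-ratio scaling and quantile normalization (limma adjusted p = 0.142 and 0.0738) and without GV14, GV15 or MII15c (0.064, 0.0588 and 0.0573). AKAP1, a mitochondrial anchor with a Tudor domain, fell to 0.851 ± 0.34 RPKM in MII, against 4.53 ± 0.66 RPKM in GV, and SND1, a Tudor nuclease, to 2.34 ± 0.45 RPKM, against 7.52 ± 1.72 RPKM in GV (SD, n = 3 each; limma adjusted p = 0.00375 and 0.00845). AKAP1 met the minimum level only through its GV libraries, and with no filter it passed (limma adjusted p = 0.0176). DDX3X, a helicase related to DDX4, had 712, 303 and 544 RPKM in MII14c, MII15 and MII15c, against 178, 228 and 178 RPKM in GV14, GV14c and GV15 (log2 change 1.34 ± 0.31; limma adjusted p = 0.00818). Without both MII15c and GV14c, MOV10 and PRMT5 passed (limma adjusted p = 0.00544 and 0.0173), and AKAP1, SND1, CLNS1A and DDX3X did not (0.0638, 0.0854, 0.0736 and 0.0583).

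**Figure D4:**
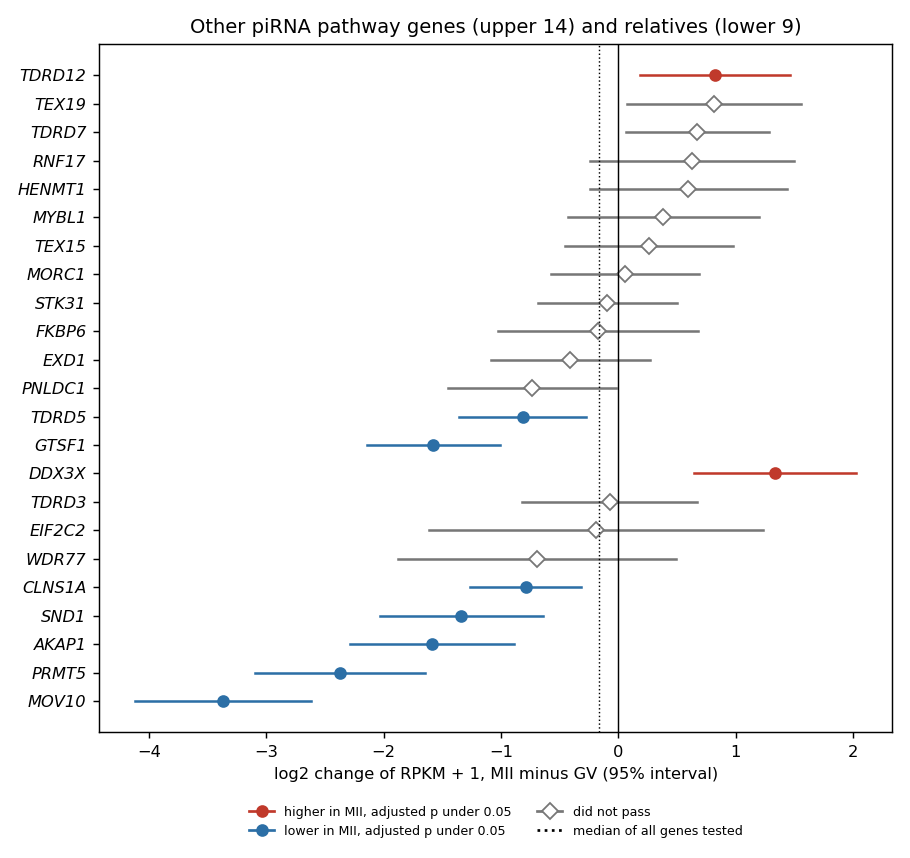
Log2 change of RPKM + 1 (x axis, MII minus GV) with 95% intervals for the 14 tested rows of other piRNA pathway genes (upper) and the 9 tested rows of relatives (lower), sorted within each list; filled circles passed the test and open diamonds did not. MOV10 at -3.37 and PRMT5 at -2.37 are lower in MII by more than any other gene shown, and DDX3X at 1.34 is higher.

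The genes whose pattern over the 6 libraries was most like that of MAEL, among 3865 other named rows with a mean of at least 10 RPKM, were RMND5A, HPRT1 and SFT2D1. Pearson's r of log2(RPKM + 1) was 0.988, 0.984 and 0.984, a description over 6 libraries that share their stage difference. HPRT1, a purine salvage enzyme, had 180.6, 235.9 and 163.1 RPKM in MII14c, MII15 and MII15c, against 68.1, 107.9 and 104.8 RPKM in GV14, GV14c and GV15, and 5 rows carry its symbol. Like MAEL, these 3 genes were highest in MII15 within MII, and in GV14c within GV, an order that choosing them by correlation over the same libraries favours.

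**Figure D5:**
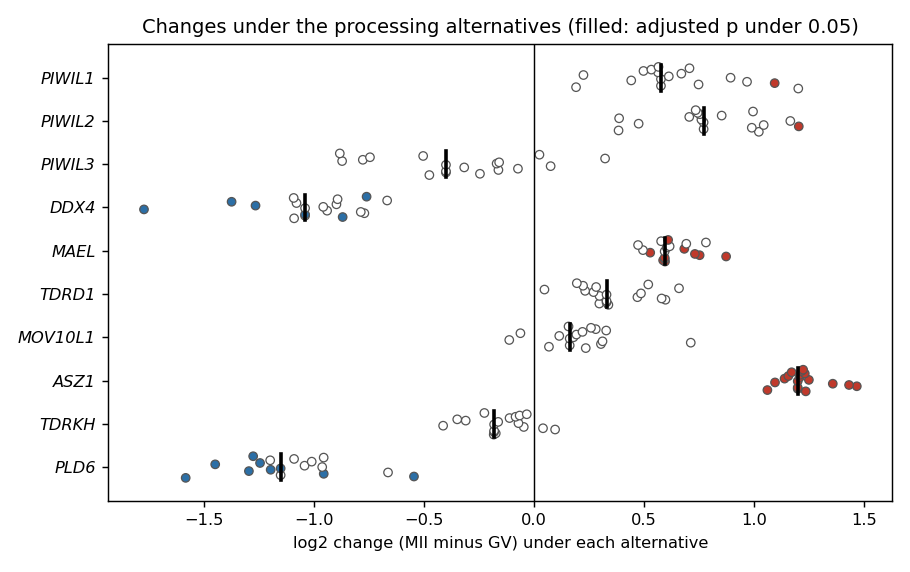
Log2 change (x axis, MII minus GV) of each gene under each of up to 18 processing alternatives (points; filled red or blue where the adjusted p is under 0.05) and as reported (vertical bars). ASZ1 is called in all 18, MAEL and PLD6 in 9 each, DDX4 in 6, and the points of PIWIL3, MOV10L1 and TDRKH lie on both sides of 0.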

How the data were processed

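The authors deposited a table of RPKM per Ensembl gene in 6 libraries, and a gene annotation with coordinates and supporting reads (other values), per the file headers. Per the labels, RNA of individual oocytes was amplified as cDNA. The submitters' processing notes name DESeq without a role. Aligner, counter and build: not given in the sources used here. Adapters were diluted 1 in 50 for MII14c and MII15, against 1 in 30 for GV14 and 1 in 10 for GV15, which moves with stage in these titled libraries and cannot be told apart from it. MII14 (1 in 30) and GV15c (1 in 10) match no column. Symbols are those the table pairs with each identifier, and 10 of 10 member symbols are protein-coding genes in RefSeq.

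RPKM are not counts, so limma 3.58.1 in R 4.3.3 (mean-variance trend) was run on log2(RPKM + 1), MII minus GV, for rows averaging at least 1 RPKM, with p adjusted by Benjamini-Hochberg and called under 0.05. It was tested on simulated data with planted changes larger than that of any member. That test does not cover changes of the size seen in the members. Depth is the value that turned low RPKM of coding-only models into whole reads (88.1% to 94.4% of such values within 0.1 of a read). It sets counting error only. Amplified reads are not independent molecules, and coding-length read numbers are minimum estimates because untranslated exons add length. Ratios and sums used exact two-sided permutation tests over libraries, with Benjamini-Hochberg adjustment over 12 quantities. The alternatives changed pseudocount, filter, scaling, weights, trend, libraries and model terms, 18 in all. Leaving out 1 library at a time was added for the ratios and sums after seeing the data.

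The members and lists were chosen with earlier results of these data known. Named were all members, up to 6 called rows of each other list by size of change, each list's most abundant row, and the 3 rows most correlated with the most abundant member.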

Additional observations from a re-analysis of the deposited data

How the results depend on the processing

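ASZ1 kept its call under all 18 alternatives. Over the members, 144 of 176 values kept direction and side of the threshold, 17 lost the call, 8 gained one and 7 changed sign. The sign changes, none of them called, were PIWIL3 with library weights (0.075), without MII15 (-0.87 to 0.32 leaving out 1 library) and with the replicate block (0.024), MOV10L1 with library weights (-0.11) and without MII14c (-0.062 to 0.33 leaving out 1 library), and TDRKH under median-ratio scaling (0.096) and quantile normalization (0.041). The summed PIWI level ranged from -0.42 to 0.58 and its ratio to MAEL from -1.03 to 0.10 (log2 differences, leaving out 1 library). The cause was not tested.

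Members called lower numbered 2 with a pseudocount of 5, with library weights and with a term for the letter c. They numbered 0 (limma) with no filter, under quantile normalization, without both untitled libraries MII15c and GV14c and with the replicate block, where 2, 0, 1 and 2 were lower at an unadjusted p under 0.05 (0 to 1 called leaving out 1 library). Members called higher numbered 4 under quantile normalization and 1 with no filter, with no mean-variance trend, without both untitled libraries and with the replicate block (1 to 2 leaving out 1 library). Other pathway genes called lower numbered 1 under each other scaling, without both untitled libraries and with the block, and 4 with library weights (1 to 2 leaving out 1 library). Those called higher numbered 0 (limma) with a pseudocount of 0.1 or 5, no filter, a mean of at least 5 RPKM and without both untitled libraries, where 3, 3, 2, 1 and 0 were higher at an unadjusted p under 0.05. They numbered 3 under median-ratio scaling, and 4 under quantile normalization and library weights (0 to 2 leaving out 1 library). At a mean of at least 5 RPKM 10 of these rows were tested, and TDRD12 was not among them. Relatives called lower numbered 3 of 5 tested at a mean of at least 5 RPKM, where 1558 of all 5426 genes tested were lower. They numbered 2 of 10 tested without both untitled libraries, where 0 relatives were higher (1 at an unadjusted p under 0.05). Over all genes, 2133 and 2262 were higher under quantile normalization and library weights, 357 higher and 1286 lower without both untitled libraries, and 588 to 1335 higher leaving out 1 library.

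The replicate block used the number 14 or 15 in the library name. Under it MAEL, PLD6 and TDRD5 were not called (limma adjusted p = 0.075, 0.0507 and 0.0508). Deviations from the stage means of libraries sharing a number correlated at 0.33 (MII14c with GV14c), 0.43 (MII15 with GV15), -0.008 (MII14c with GV14) and -0.23 (MII15c with GV15). They correlated at 0.26 for MII15c with GV14c, which share the letter c but no number. Pairs alike in the letter, both with it or both without, were all positive, from 0.067 (MII15 with GV14) to 0.43. Pairs that differ in the letter were all negative, from -0.41 (MII15 with GV14c) to -0.008. Deviations from a stage mean cancel out over the libraries of that stage, so correlations of both signs had to occur. No label states what the numbers or the letter mean.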
